A study of Mus musculus with 15 samples.

Results

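The lungs of 3 female Crlj:CD1(ICR) mice fed a control powdered diet with 0 ppm permethrin for 7 days were the untreated animals of a permethrin feeding study. They were chosen by their diet label and made up 3 of the 15 arrays of the series. Crlj:CD1(ICR) is an outbred stock, so the mice were not genetically identical. They were bought at 9 weeks and were 11 weeks old, and the labels name no engineered allele and no agent given to them. RNA came from whole lung, with 1 mouse per array, and the animals are called mouse 1, mouse 2 and mouse 3 here. No dose was compared. The other 4 diets, 20, 500, 2500 and 5000 ppm, enter below for the spread among their own 3 mice.

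Gas passes through the alveoli across thin alveolar type 1 cells, while alveolar type 2 cells make and recycle surfactant, a film of lipid and protein that lowers surface tension. The airways are lined by ciliated cells that move mucus and by secretory club cells, which also hold most of the cytochrome P450 enzymes of the mouse lung. P450 enzymes oxidise foreign compounds, and transferases such as glutathione S-transferases then couple the products to small polar molecules. A dense capillary bed, resident alveolar macrophages and matrix-producing fibroblasts make up much of the remaining tissue.

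Signal is given as log2 of the background-subtracted probe signal minus the 75th percentile of the same array, so that 0 is that percentile and a step of 1 is 2-fold. Of 56605 non-control probes, 41404 (73.15%) were well above background in all 3 mice. After keeping the brightest detected probe of each named gene, 32975 genes were ranked, 18721 with a symbol (78.71% of the 23785 on the array) and 14254 probes without one, which are counted as genes here. Probes bind their targets with different strength, so this order is an order of probe signal and not of molecules in the lung. Percentile ranks below are among these 32975 genes, and 100 is the top. The arrays held no saturated spots, at most 145 outlier spots each and between 76.02% and 80.87% of probes well above background. Xist, the RNA that coats the inactive X chromosome, had signals of -1.83, -1.43 and -1.45, and 3 of 4 Y-linked genes were not detected on all arrays. The other, Kdm5d, lay at -5.05, -4.03 and -4.45, near the lowest mean of any detected gene (-5.02).

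The promoters of 4 genes that the results below turn on are shown, to put the airway enzyme with the highest P450 signal beside genes whose signal differed between the mice. Cyp2f2 and Scgb3a1 are secretory airway genes, and Myh6 and Myl7 are heart muscle genes. Each runs from 250 bases before to 50 bases after the start site in RefSeq (GRCm38.p6), 5′ to 3′ on the gene's strand. Capitals mark CAAGTG, the core bound by NKX2 family factors, its reverse complement CACTTG, and TATAAA, the TATA box (searched as TTTATA on the other strand).
Cyp2f2 (chr7:27119705-27120004, plus strand): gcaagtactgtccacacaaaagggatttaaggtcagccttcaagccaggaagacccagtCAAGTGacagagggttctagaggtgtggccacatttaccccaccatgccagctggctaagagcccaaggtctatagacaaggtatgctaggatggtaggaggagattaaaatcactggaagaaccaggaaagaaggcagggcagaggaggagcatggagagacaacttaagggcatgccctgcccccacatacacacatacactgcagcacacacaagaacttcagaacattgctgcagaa
Scgb3a1 (chr11:49663345-49663644, plus strand): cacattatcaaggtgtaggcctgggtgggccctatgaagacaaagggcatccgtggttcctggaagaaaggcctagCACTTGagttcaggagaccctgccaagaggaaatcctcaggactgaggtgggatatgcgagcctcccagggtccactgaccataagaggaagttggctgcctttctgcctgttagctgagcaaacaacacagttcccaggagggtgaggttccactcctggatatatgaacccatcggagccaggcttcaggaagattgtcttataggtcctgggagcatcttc
Myh6 (chr14:54966558-54966857, minus strand): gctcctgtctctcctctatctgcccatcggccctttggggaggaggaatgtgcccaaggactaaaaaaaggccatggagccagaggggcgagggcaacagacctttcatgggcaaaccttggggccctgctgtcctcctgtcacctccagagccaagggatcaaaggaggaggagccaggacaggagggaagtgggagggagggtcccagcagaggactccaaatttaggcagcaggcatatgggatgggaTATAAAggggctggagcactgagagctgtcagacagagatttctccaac
Myl7 (chr11:5898733-5899032, minus strand): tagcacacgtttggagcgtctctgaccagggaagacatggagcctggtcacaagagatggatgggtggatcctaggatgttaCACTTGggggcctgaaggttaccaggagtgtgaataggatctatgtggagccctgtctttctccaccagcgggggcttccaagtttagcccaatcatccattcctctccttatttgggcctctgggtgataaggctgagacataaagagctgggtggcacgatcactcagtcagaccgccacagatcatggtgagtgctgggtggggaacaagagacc
Cyp2f2 and Scgb3a1 each held 1 copy of the NKX2 core and no TATA box, Myl7 held 1 copy of the core, and Myh6 held 1 TATA box and no copy of the core. Over 32851 RefSeq promoters of the same length, 13.6% held the core and 13.6% held the TATA box on either strand. The motifs do not overlap each other, and a match is a description of letters. The promoters of Scgb1a1 and Sftpc, the genes with the highest airway and alveolar signal, are not shown.

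The highest signals of the control lung came from secreted airway and alveolar proteins, haemoglobin and ribosomal proteins. Among genes with a symbol, Scgb1a1, the main secretoglobin of club cells, ranked first at 9.41, 9.71 and 9.61 in mouse 1, 2 and 3 (mean 9.58 ± 0.16, SD, n = 3). Cbr2, a carbonyl reductase of lung mitochondria, followed at 9.32, 9.63 and 9.45. Sftpc, the surfactant protein made by type 2 cells alone, lay at 9.38, 9.41 and 9.32, and its spread (SD 0.05) was among the smallest of the 30 highest genes (SD 0.04 to 0.37, median 0.16). Scgb3a2, a further club cell secretoglobin, reached 8.69, 8.72 and 8.65. Ager, the receptor that marks the type 1 cell membrane, reached 8.19, 8.89 and 8.74. These 5 genes are products of both alveolar cell types and of the club cell.

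Blood and housekeeping transcripts filled much of the remainder. The alpha globin genes Hba-a1 (9.29, 9.55 and 9.39) and Hba-a2 (9.21, 9.51 and 9.30) and the beta globin gene Hbb-bt (8.98, 9.26 and 9.05) were among the 8 highest; the alpha genes are near-identical copies, so their probes may share targets. Actb, the cytoplasmic actin used as a reference gene, had 8.78, 9.27 and 9.10. Gapdh, the glycolytic reference gene, was outside the 30 at 5.61, 6.23 and 6.26. The ribosomal protein genes Rpl41, Rpl37rt, Rpl37a, Rps18 and Fau, the growth-related protein gene Tpt1, the cyclophilin gene Ppia, the ferritin heavy chain gene Fth1, the matrix protein gene Sparc and the granulin precursor gene Grn were also in the group. Rn4.5s, a small non-coding RNA, had 8.52, 8.89 and 8.90.

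Several of the 30 are not known as abundant lung transcripts. Slc10a1, the bile acid uptake transporter of liver cells, had 8.91, 9.11 and 9.08, and its other probe was not detected on all 3 arrays. Elk1, a transcription factor of the growth factor response, had a mean of 9.03 by one probe and -1.60 by the other. Ttc38 had 8.86 by its brightest probe and -3.85 by its dimmest, and Milr1, a mast cell receptor, 8.69 and -3.51. Zfp628, Kctd14, Exosc2, Glrx2, Tapbpl and Ndor1 completed the list. In RefSeq, Zfp628 has Nat14 within 1 kb, Ttc38 has Gtse1, Milr1 has Polg2, and Tapbpl has Cd27. Of the 30 genes, 15 had several detected probes, and in 13 of them the probes of 1 gene differed by at least 3 (log2). A rank therefore belongs to a probe, and the place of these genes rests on 1 probe each.

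The order was shared by the mice. Of the 30 genes, 26 were among the 30 highest named genes of mouse 1 alone, 29 in mouse 2 and 29 in mouse 3, and 87 genes were among the first 100 named genes of all 3 mice. Within the 30, mouse 1 gave the lowest signal for 28 genes and mouse 2 the highest for 28. After quantile normalization these numbers were 19 and 13. Mouse 1 was also the lowest for 60.6% of all 32975 genes and for 84.1% of those in the top 10% by signal, where mouse 2 was the highest for 53.5%. The 30 genes lay within the first 40 ranks, which also held 9 probes without a symbol and 1 gene known by a model name.

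**Figure D1:**
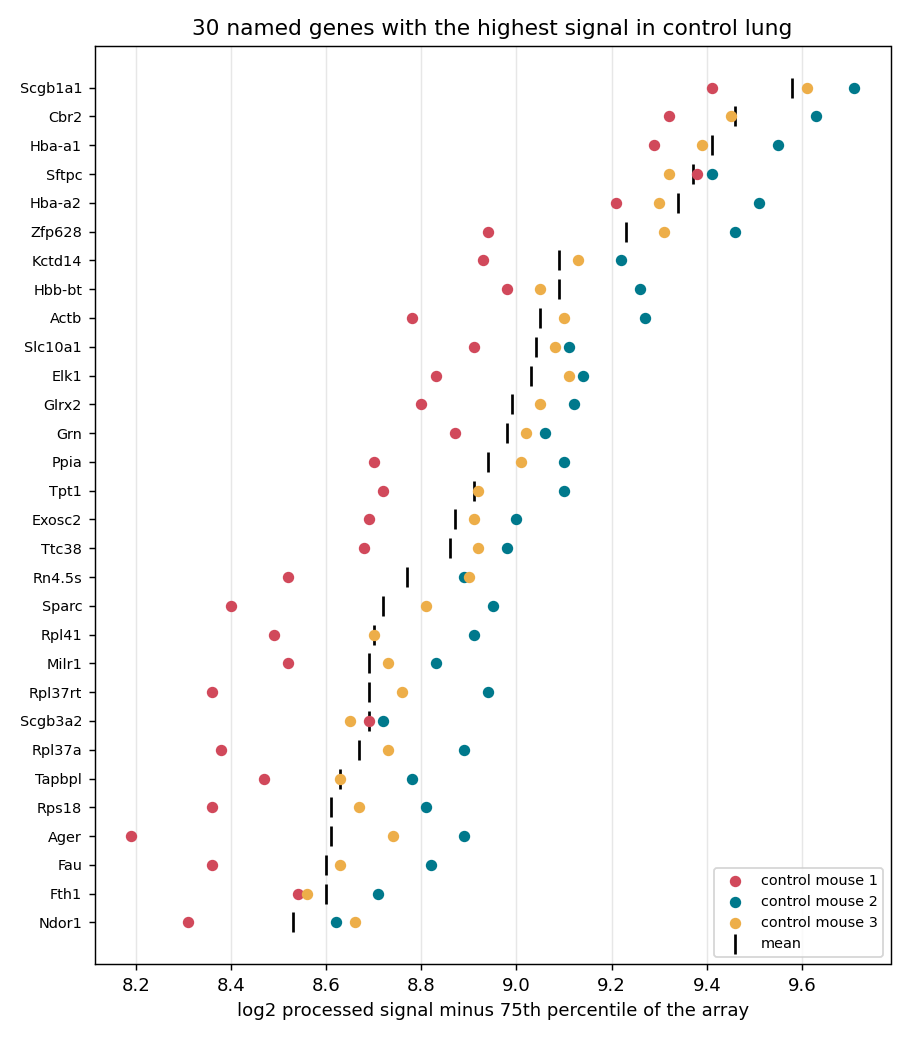
The 30 named genes with the highest mean signal in control lung, from the top down; the horizontal axis is log2 processed signal minus the 75th percentile of the array, points are the 3 mice and the black tick is their mean. Scgb1a1 leads at 9.41 to 9.71, and mouse 1 lies lowest for 28 of the 30 genes.

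Marker genes of the alveolus, the airway and the capillary bed had the highest ranks of the 23 lists of lung cell types. The median percentile of the detected members was 96.7 for alveolar type 1 cells (18 of 18 detected), 92.8 for type 2 cells (23 of 23), 92.7 for club cells (25 of 25), 92.5 for endothelium in general (26 of 26) and 91.9 for capillary subtypes (16 of 16). Over all genes with a symbol the median percentile was 63.2. Lists for basal cells (41.4), mast cells and basophils (36.9) and neuroendocrine cells (34.6) lay at the bottom of the lung cell lists. In whole lung, fewer cells of a type and less RNA per cell cannot be told apart.

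Type 2 cell genes were led by the secreted and lysosomal products of the surfactant system. After Sftpc came Sftpd, the collectin that binds microbes in the airspace, at 7.16, 7.45 and 7.78, and Sftpa1, its relative, at 7.59, 7.31 and 7.33. Lyz1, a lysozyme, had 7.16, 7.33 and 7.38. Lamp3, a lamellar body membrane protein, and Ctsh, a protease that processes surfactant protein precursors, lay at 6.41, 6.48 and 6.79 and at 6.25, 6.62 and 6.57. Sftpb, the hydrophobic surfactant protein that is required for breathing, was far lower in signal, at 3.67, 3.12 and 2.59. Lyz2, the lysozyme of macrophages and type 2 cells, separated mouse 1 (4.97) from mouse 2 and mouse 3 (2.40 and 2.33), whereas Lyz1 did not. Of the 23 members, 13 were in the top 10% of genes, and 9 had a range (highest minus lowest mouse) of at least 1, against 11.6% of all 32975 genes. Mouse 1 was at least 1 above both other mice in 5 of the 23, against 4.55% of all genes. The largest range was that of Chil1, a chitinase-like protein, whose signal was 5.01, 2.40 and 5.21, low in mouse 2.

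The type 1 list was led by Ager, then Sec14l3, a lipid-binding protein that is also on the ciliated list, at 6.66, 7.23 and 7.12, and Emp2, a membrane protein, at 6.51, 7.21 and 7.06. Hopx, a transcriptional cofactor of type 1 cells, had 6.32, 6.77 and 6.76. Clic5 and Gprc5a followed at 5.56, 6.53 and 6.05 and at 5.33, 6.35 and 6.15. Mouse 1 was the lowest of the 3 for 16 of the 18 genes, against 60.6% of all genes. That is near the share of all genes in the top 10% by signal (84.1%), but only 12 of the 18 lay in that class. After quantile normalization the count stayed at 16 of 18. Krt7, an epithelial keratin, ran the other way at 2.63, -0.25 and -0.52.

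Club cell genes carried both secreted proteins and enzymes. Below Scgb1a1, Cbr2 and Scgb3a2 stood Cyp2f2, the P450 that activates naphthalene, at 8.08, 8.29 and 8.22. Hp, haptoglobin, lay at 7.88, 7.93 and 7.93, and Aldh1a1, a retinaldehyde dehydrogenase, at 6.75, 7.09 and 7.17. For these 6 genes the mice were within 0.42 of each other. Lower in the same list were genes that did not agree. Reg3g, a bactericidal lectin, had -0.44, -3.83 and 2.09, and Scgb3a1, a secretoglobin of the larger airways, had 4.74, 0.71 and 6.64. Of the 25 members, 8 had a range of at least 1, against 11.6% of all genes.

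Ciliated cell genes differed little between the mice. All 24 were detected, with a median percentile of 77.5. Only 1 (4.17%) had a range of at least 1, against 11.6% of all genes. It was Rsph1, a radial spoke protein (2.06, 2.35 and 1.10). Tppp3, a microtubule-binding protein, had 6.37, 6.61 and 7.05, and Cyp2s1, an airway P450, 4.78, 4.92 and 4.85. Fam183b, Dynlrb2 and Cfap126, parts of the axoneme or its transport, lay between 3.82 and 4.56 in all mice. Foxj1, the factor that drives ciliogenesis, had 1.77, 0.94 and 0.82.

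Lists for other airway cells ranked lower. Of 10 mucous cell genes, 7 were detected on all 3 arrays. Clca1, a secreted protein of mucous cells, was above background on 2 arrays, with signals of 0.64, -4.65 and 4.77. Gp2 was above background on 2 arrays (-3.54, -5.11 and -1.05) and Foxa3, a transcription factor, on 0. The gel-forming mucin gene Muc5ac lay at -3.20, -3.05 and -2.91. Basal cells had Trp63, their lineage factor, at 3.04, 3.28 and 3.27, but the basal keratin genes Krt5 and Krt14 lay below -2 in every mouse. The neuroendocrine list was led by Syp, a synaptic vesicle protein (1.0, 1.44 and 1.38), and Chga, the granule protein chromogranin A, lay at -4.23, -4.24 and -3.99.

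Endothelial signal was high for Egfl7, a secreted vessel protein, at 7.88, 8.22 and 8.20, and for Ramp2, the partner of the adrenomedullin receptor, at 7.26, 7.83 and 7.78. Cldn5, the tight junction claudin of vessels, had 6.25, 6.11 and 5.97. Ptprb and Thbd, a vascular phosphatase and thrombomodulin, lay between 5.43 and 6.08. Pecam1, the adhesion molecule used to define endothelium, had 1 probe on the array, with signals of 1.15, -0.61 and -0.86. It ranked at percentile 61.8, and mouse 1 lay apart from the others. Lyve1, a hyaluronan receptor of lymphatic vessels, had the widest endothelial range, at 2.20, 4.67 and 3.23.

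**Figure D2:**
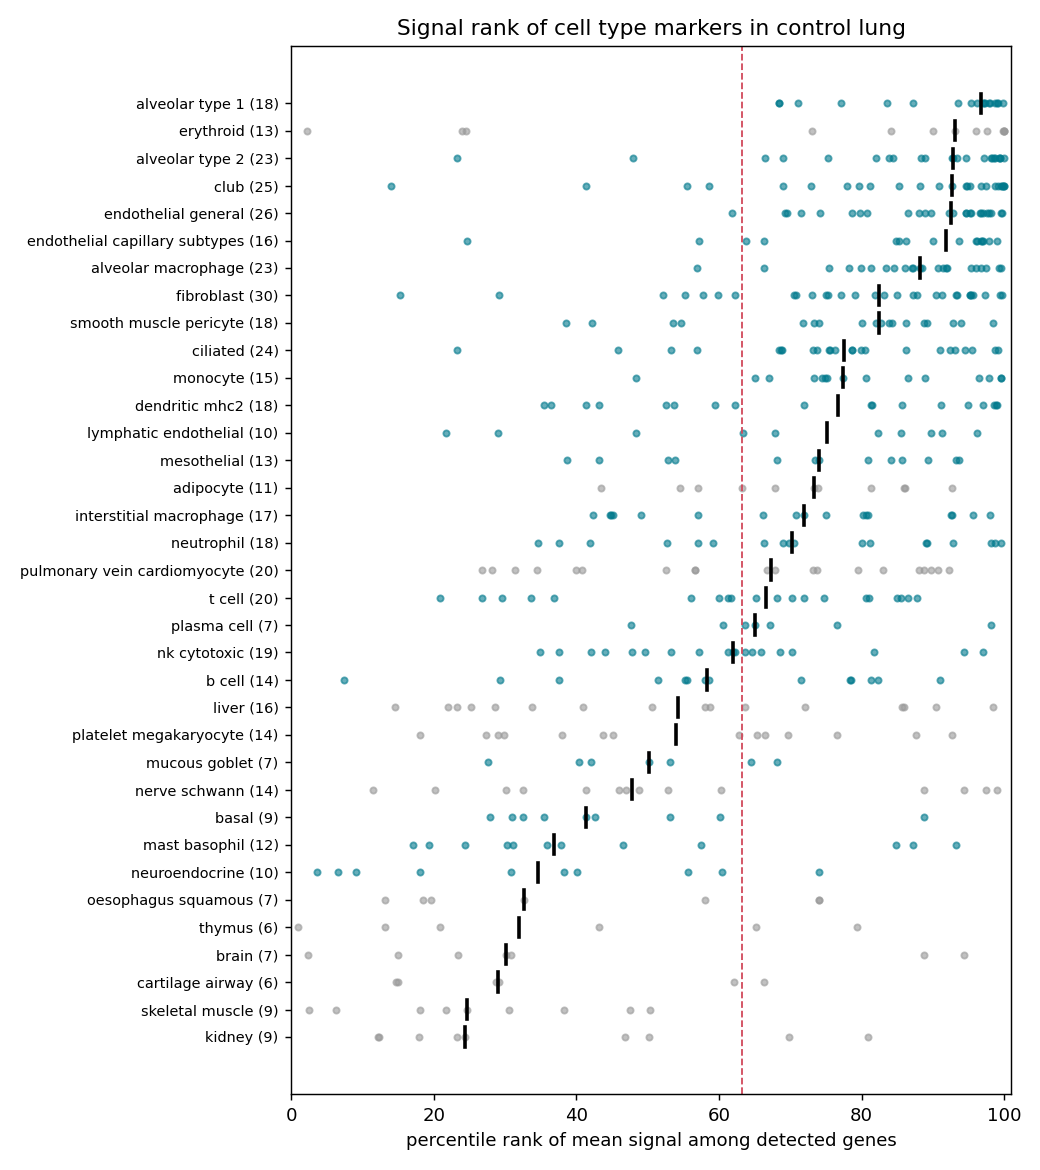
Percentile rank of mean signal (horizontal axis, 100 is the top) for the detected genes of each cell type list, with the number of genes in brackets; points are genes, black ticks are list medians, teal marks lung cell types, grey marks other tissues and blood, and the dashed line is the median of all named genes (63.2). Type 1, type 2, club, general endothelial and capillary lists have medians above 91, and kidney and skeletal muscle lists lie below 25.

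Alveolar macrophage genes stood above those of other leukocytes, with a median percentile of 88.2 and 10 of 23 genes in the top 10%. Chil3, a chitinase-like protein of these cells, had 7.42, 7.59 and 8.07, and the ribonuclease genes Ear2 and Ear1 had 7.05, 7.40 and 7.69 and 5.64, 5.56 and 5.82. The Ear genes are close paralogs, so their probes may not tell them apart. Mouse 3 was the highest for 21 of the 23 genes, against 36.2% of all genes. Marco, a scavenger receptor, had 3.61, 2.60 and 4.53, and Car4, a carbonic anhydrase also found in capillaries, ran otherwise at 1.97, -0.37 and -0.46.

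Among blood leukocytes, the neutrophil calprotectin genes S100a9 (8.10, 7.52 and 8.14) and S100a8 (6.34, 5.77 and 6.39) and the classical monocyte gene Ly6c2 (7.49, 7.75 and 7.84) lay high. Their percentiles were 99.64, 98.2 and 99.54. The lists they belong to lay lower, with median percentiles of 70.2 for neutrophils and 77.4 for monocytes. Mouse 2 was the lowest for 14 of 18 neutrophil genes, against 15.4% of all genes. T, B and natural killer cell lists had median percentiles of 66.6, 58.3 and 61.9. Cd79b, part of the B cell receptor, lay at 3.68, 3.68 and 3.55, Cd3e, part of the T cell receptor complex, at 2.66, 3.15 and 3.37, and Gzma, a cytotoxic granule protease, at 5.56, 5.20 and 5.81. The complement gene C1qa, of interstitial macrophages, set mouse 1 apart (0.52, -2.84 and -2.84), while C1qc did not (2.09, 1.99 and 2.02). None of the 14 detected B cell genes and 12 detected mast cell and basophil genes had a range of at least 1, against 11.6% of all genes. Lists this short are hard to set apart from that share.

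Antigen presentation held 1 of the widest differences in the lung. H2-Eb1, a beta chain of the class II molecule that presents peptides to helper T cells, had 6.57 in mouse 1, 1.76 in mouse 2 and 5.73 in mouse 3, measured by 1 probe. H2-Ab1, the beta chain of the other class II molecule, had 6.57, 6.53 and 6.37, and Cd74, their invariant chain, 5.67, 5.65 and 5.27. The drop in mouse 2 was thus not shared by H2-Ab1 and Cd74. Other class II genes were uneven in another order. H2-Aa had 2.71, 0.89 and -0.49 and H2-DMa 1.41, -1.80 and -2.31, with mouse 1 highest and mouse 3 lowest. H2-DMb1 had 3.26, 4.47 and 3.31, with mouse 2 highest. H2-Q1, a class I gene, was the reverse of H2-Eb1, at -1.26, 2.42 and 0.40. In the other diets the range of H2-Eb1 among the 3 mice was 1.37, 3.77, 3.85 and 4.35, from the lowest dose to the highest.

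Mesenchymal cells were represented by Inmt, an N-methyltransferase of lung fibroblasts, at 8.0, 8.15 and 7.90, and Gsn, gelsolin, at 7.22, 7.82 and 7.61. Col1a2 and Dcn, a collagen and a collagen-binding proteoglycan, lay between 4.62 and 5.10. Tagln, a contractile protein of smooth muscle, had 5.67, 6.84 and 6.47, and Higd1b, a pericyte gene, had 3.89, 4.66 and 4.53. Mouse 1 stood at least 1 above both others in 5 of 30 fibroblast genes and 5 of 18 smooth muscle and pericyte genes, against 4.55% of all genes. These included G0s2, a lipase inhibitor (1.54, -1.20 and -1.20), and Des, the muscle filament desmin (-0.09, -2.76 and -2.90).

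The enzymes of foreign compound metabolism were unevenly represented. Cytochrome P450 genes had a median percentile of 43.5, below the 63.2 of all named genes, and 8 of the 65 detected genes were in the top 10%, against 13.2% of all named genes. Cyp2b10, the phenobarbital-type P450, followed Cyp2f2 at 6.20, 6.73 and 6.88, and Cyp2b9, its close relative, at 5.37, 5.87 and 6.06. Cyp4b1, a lung P450 that activates furans, had 5.38, 5.82 and 5.82, Cyp17a1, a steroid hydroxylase, 4.41, 5.08 and 5.34, and Cyp2s1 the values given above. Cyp2b and Cyp2a genes are families of near-identical copies, and their probes may share targets.

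Of 90 P450 genes on the array, 25 were not detected on all 3 arrays. They included Cyp7a1 and Cyp8b1 of bile acid synthesis, Cyp19a1 of oestrogen synthesis, Cyp11b1 and Cyp11b2 of adrenal steroid synthesis and Cyp1a2, a liver enzyme. Of the 65 detected, 27 had a range of at least 1, against 11.6% of all genes, and mouse 1 was at least 1 above both others in 12, against 4.55%. The widest ranges were those of Cyp2a22 (-1.14, -3.83 and -3.43) and Cyp2c54 (-1.35, -2.80 and -3.90), both at low signal. The electron donors of the P450 system were high and even. Cyb5a, cytochrome b5, had 6.62, 7.02 and 6.85, Cyb5r3, its reductase, 6.32, 6.77 and 6.61, and Por, the P450 reductase, 5.39, 5.88 and 5.87. None of the 6 genes of that group had a range of at least 1, against 11.6% of all genes, and 6 genes are too few to set apart from that share.

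Coupling enzymes differed by family. Glutathione S-transferases had a median percentile of 86.6 with 23 of 25 detected, and were led by Gstp2 (6.58, 7.29 and 7.18), Gstm1 (5.86, 6.19 and 6.29) and Gstm3 (5.78, 6.26 and 6.26). UDP-glucuronosyltransferases had 24.4 with 8 of 14 detected, and sulfotransferases 29.0 with 14 of 21. Their leading members were Ugt1a6b (4.11, 4.26 and 4.39) and Sult1a1, the phenol sulfotransferase (2.65, 3.03 and 2.84). Fmo2, the flavin monooxygenase typical of lung, had 4.47, 4.82 and 4.44, and Fmo4, Fmo6 and Fmo9 were not detected on all arrays. Ephx1, the microsomal epoxide hydrolase, lay at 5.44, 5.67 and 5.62. Carboxylesterases, which cleave esters, were led by Ces1d at 4.26, 1.90 and 1.82, and the remaining Ces genes had means below 1.

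Reductases and antioxidant enzymes were prominent. Prdx6, a peroxiredoxin with phospholipase activity that also turns over surfactant lipid, had 7.86, 8.27 and 8.21. Sod1, the cytosolic superoxide dismutase, had 7.18, 7.80 and 7.68, and Prdx1 had 6.72, 7.10 and 7.28. All 31 antioxidant genes were detected, with a median percentile of 88.0. Of them 3 (9.68%) had a range of at least 1, near the 11.6% of all genes. In each of the 3, mouse 1 was the mouse that lay apart. Gpx3, the secreted glutathione peroxidase, had 5.02, 2.85 and 2.52, and Glrx, a glutaredoxin, 1.56, -0.96 and -0.94. Surfactant lipid genes (30 of 30 detected, 88.3) included Elovl1, a fatty acid elongase, at 6.58, 6.54 and 7.05 and the lipid transporter gene Abca3 at 6.05, 6.23 and 6.27. Nuclear genes of oxidative phosphorylation (97.3) and ribosomal proteins (99.1) were higher still, with 27 of 30 and 75 of 79 in the top 10%.

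The mice agreed closely over the whole transcriptome, and mouse 1 stood further from the others than they stood from each other. Across the 32975 genes, which are not independent replicates, Pearson's r was 0.991 between mouse 2 and mouse 3 and 0.976 for mouse 1 with either of them. The median absolute difference was 0.19 between mouse 2 and mouse 3, against 0.38 and 0.37 for the pairs with mouse 1. A difference of at least 1 was found in 690 genes (2.09%) between mouse 2 and mouse 3, and in 2686 (8.15%) and 2734 (8.29%) for mouse 1 with mouse 2 and with mouse 3. With 1 array per mouse, differences between single mice have no test. The median SD over the mice was 0.26 and the median range 0.49, or 1.41-fold. A range of at least 1 was found in 3833 genes, of at least 2 in 872 and of at least 3 in 181.

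Measurement error within an array was smaller than this spread. For 299 probes printed in 10 spots each, the median SD of log2 signal between spots was 0.04 on each array, whereas the SD of the same probes over the 3 mice was 0.22 and was larger in 291 of the 299. Spots on 1 array share the extract, the labelling and the scan, so the difference between mice holds those steps as well as the animal. The median SD depended little on signal: in 5 classes of 6595 genes from the lowest signal to the highest, it ran from 0.27 to 0.25. The share with a range of at least 1 differed more, at 10%, 15.3%, 15.3%, 10.4% and 7.16%.

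**Figure D3:**
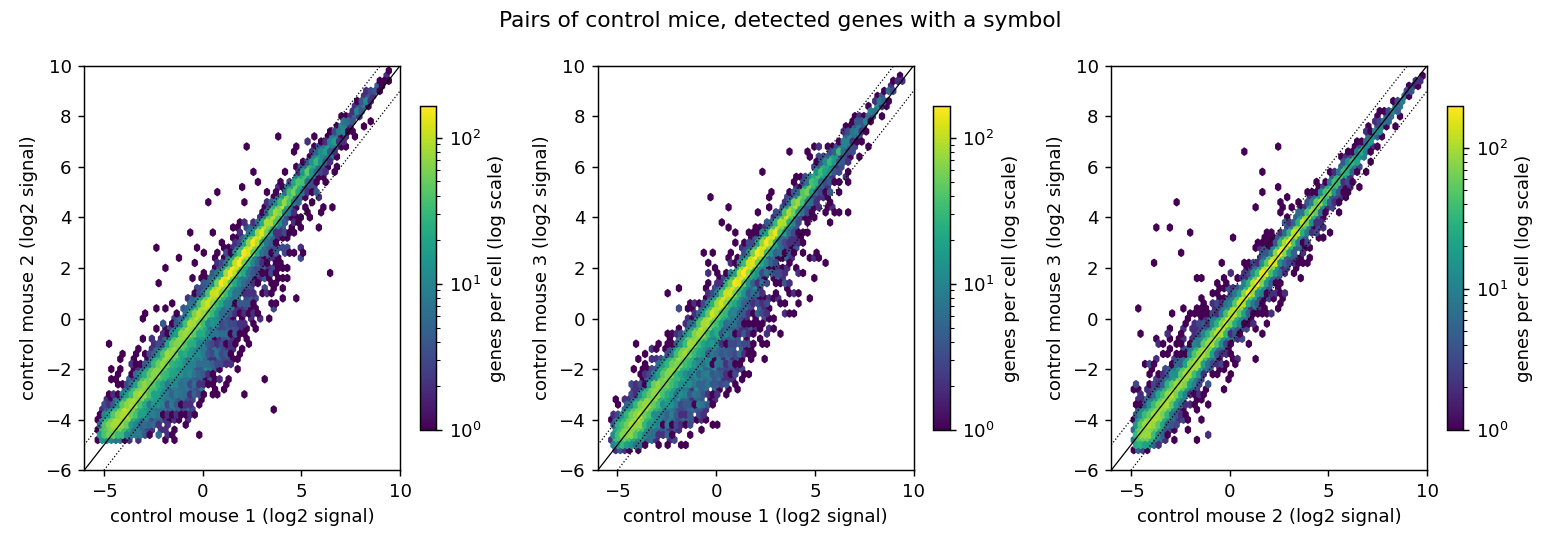
Log2 signal of each pair of control mice over the detected named genes; colour is the number of genes per cell on a log scale, the solid line is equality and the dotted lines are a difference of 1. A band of genes higher in mouse 1 lies below the lower dotted line in both panels with mouse 1 and has no counterpart in the panel of mouse 2 and mouse 3.

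Mouse 1 lay at least 1 above both others in 1502 genes (4.55%) and below both in 294 (0.892%). The same counts were 155 (0.47%) and 111 (0.337%) for mouse 2, and 97 (0.294%) and 118 (0.358%) for mouse 3. The genes furthest above in mouse 1 were Cndp2, a dipeptidase (1.16, -2.54 and -2.83), Cenpb, a centromere protein (1.66, -2.0 and -2.24), Coro1b, an actin regulator (0.57, -2.98 and -3.03), Coq5, Tmbim6, C1qa, Fermt3 and Fkbp2. C1qa was the only 1 of these 8 on any of the 60 gene lists. The genes furthest below were Fscn2, a bundling protein of the retina and ear (0.24, 4.52 and 3.86), Dct, a pigment enzyme (0.73, 5.02 and 4.33), the histone genes H4c4 (2.26, 6.81 and 5.85) and H4c14 (2.06, 5.25 and 4.30), Zbtb8b, Pax2, Pop4 and Iqsec3. The 2 probes of H4c4 both placed mouse 1 lowest. For Pax2, a kidney and eye factor, the brightest of 3 probes (-0.65, 3.30 and 2.48) showed the difference and the others, with ranges of 0.34 and 0.79, did not.

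The excess in mouse 1 went with the dim probes of genes. In 6560 genes with several detected probes, the probes of 1 gene differed by a median of 3.03. Mouse 1 was at least 1 above both others for 3.11% of the brightest probes, 5.95% of probes of the 12161 genes with a single detected probe, and 17.8% of the dimmest probes. For mouse 2 and mouse 3 no class exceeded 0.485%. The gap between the brightest and the dimmest probe had a median of 2.59 in mouse 1, 3.18 in mouse 2 and 3.28 in mouse 3, and was smallest in mouse 1 for 4400 genes (67.1%). The cause was not tested.

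Individual genes showed the pattern plainly. By its bright probe Cbr2 was alike in the mice (9.32, 9.63 and 9.45), and by its dim probe it was 6.54, 3.07 and 2.52. The 2 brightest probes of Ager had mouse 1 lowest (8.19, 8.89 and 8.74; 8.18, 8.91 and 8.73), and the next pair had it highest (5.81, 3.31 and 3.31; 5.62, 3.43 and 3.25). Grn was even by 2 probes (8.87, 9.06 and 9.02; 5.71, 5.92 and 5.96) and uneven by the dimmest (0.84, -2.14 and -2.28). Napsa, the aspartic protease that processes surfactant protein B, had 3.80, 1.51 and 1.48 by one probe and 2.73, -0.99 and -1.09 by the other. Lyz2, Pecam1 and C1qa had a single detected probe each, and all of them put mouse 1 above the others.

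**Figure D4:**
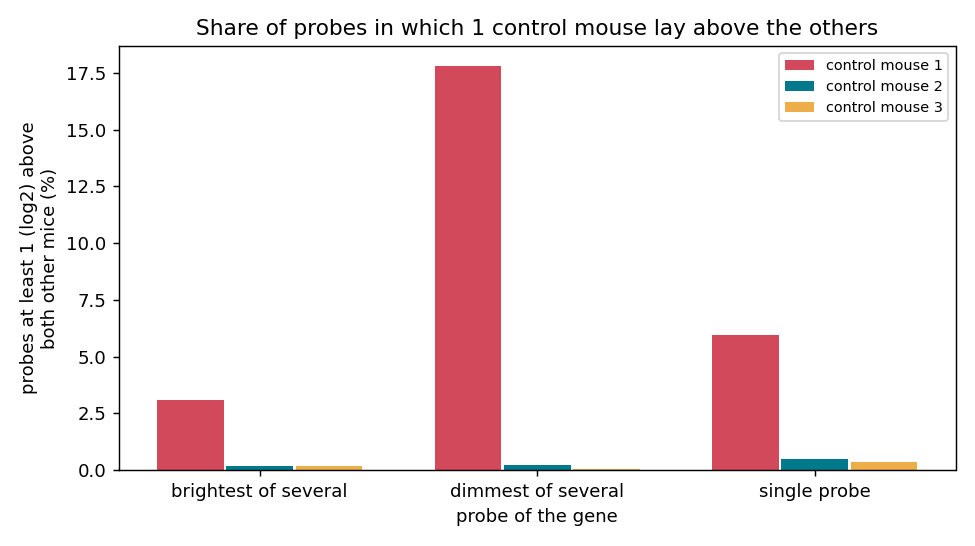
Share of probes (%, vertical axis from 0) in which 1 mouse lay at least 1 (log2) above both other mice, for the brightest and the dimmest probe of genes with several detected probes and for genes with a single detected probe; bars are the 3 mice. Mouse 1 reaches 17.8% for the dimmest probes, and no bar of another mouse passes 0.485%.

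Secretory airway genes differed between all 3 mice, with mouse 3 high and mouse 2 low. Among named genes detected on all 3 arrays, the widest range was that of Itln1, intelectin, a lectin of mucous and mesothelial cells, at -0.29, -2.68 and 4.70. Bpifb1, a secreted lipid-binding protein of airway glands, had 2.17, -3.05 and 3.62. Muc5b, the main gel-forming mucin of mouse airways, had 0.65, -2.06 and 3.48, and its second probe gave the same order (-2.12, -3.10 and 0.03). Scgb3a1 had 4.74, 0.71 and 6.64, Reg3g the values given above, and Tff2, a trefoil peptide, -1.91, -4.73 and 0.43. Retnla, a resistin-like secreted protein, had 5.06, 2.36 and 6.82. In each of these genes mouse 3 was highest and mouse 2 lowest. Mouse 2 was further from mouse 1 than mouse 3 was in Bpifb1, Scgb3a1, Reg3g, Tff2 and Retnla, and mouse 3 was further in Itln1 and Muc5b. In the club list mouse 3 was at least 1 above both others in 4 genes, against 0.294% of all genes, and mouse 2 at least 1 below both in 4, against 0.337%.

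In the mucous cell list mouse 3 was the highest for 7 of 7 detected genes and at least 1 above both others in 5, against 0.294% of all genes, and mouse 2 was at least 1 below both in 2. This list and the club, heart muscle, adipocyte and liver lists were chosen with earlier results of these data known. Their counts beside the shares of all genes are therefore descriptions and not tests. Slc26a4, an anion exchanger, had -1.01, -1.99 and 0.10, and Agr2, a mucin-folding protein, -2.10, -2.62 and -1.08. Spdef, the mucous lineage factor, differed by less than 0.5 between the mice (-0.09, 0.27 and 0.39), as did Muc5ac. Over the ciliated list, whose cells line the same airways, the medians were 1.77, 1.73 and 1.64. Scgb1a1 and Cyp2f2 had ranges of 0.31 and 0.21. The airway lists thus held members that were even in the mice and members that were not.

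Mouse 2 was set apart by heart muscle and fat genes. The wall of the mouse pulmonary vein holds heart muscle, and fat adjoins the lung root. In the heart muscle list mouse 2 was the lowest for 18 of 20 detected genes, against 15.4% of all genes, and at least 1 below both others in 12, against 0.337% of all genes. Myh6, the atrial myosin heavy chain, had 4.10, 1.70 and 4.90, Myl7, the atrial light chain, 3.57, 1.28 and 4.40, and Myl4, a further atrial light chain, 4.21, 2.83 and 4.73. Sln, an atrial inhibitor of the calcium pump, had 2.48, 0.24 and 3.12. Tnni3, cardiac troponin I, had 0.77, -3.02 and -0.80, and its second probe 0.74, -2.78 and -1.27. The exceptions were Gja5, a connexin that arteries also make (2.97, 3.78 and 3.37), and Myl2, the ventricular light chain (-3.34, -2.55 and -2.50), for both of which mouse 1 was lowest.

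In the adipocyte list 5 of 11 detected genes were at least 1 below both others in mouse 2, against 0.337% of all genes. Cfd, adipsin, had 3.65, -3.65 and 3.56, a difference of 158-fold between the highest and the lowest mouse. Adipoq, adiponectin, had -0.26, -4.62 and -0.54, and Car3, a carbonic anhydrase of fat and muscle, 1.61, -1.64 and 1.67. Thrsp, of lipid synthesis, and Retn, resistin, followed at 1.01, -1.41 and 0.55 and at 0.36, -2.38 and 0.30. Fabp4, which capillaries also express, was lowest in mouse 2 by less (2.91, 2.32 and 3.23). Lep, leptin (-0.86, -0.81 and -0.76), Adrb3, an adrenergic receptor of fat (1.22, 1.23 and 1.35), and Acsl1, a fatty acid ligase (2.53, 2.82 and 3.06), were not low in mouse 2. Gdpd3, a phosphodiesterase on neither list, had the same shape, at 3.09, -2.41 and 2.70.

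Liver-type genes were highest in mouse 1 for 12 of 16, against 21.7% of all genes, and at least 1 above both others in 9, against 4.55% of all genes. Alb, albumin, had 4.09, 2.57 and 1.73, Mup3, a major urinary protein, 1.88, 0.08 and -1.66, Ttr, transthyretin, 0.11, -1.12 and -2.59, and Ahsg, fetuin, 2.47, 0.68 and 0.00. Mouse 3 was the lowest for 11 of the 16. Further Mup genes took the same order, among them Mup1 (4.69, 2.59 and 0.72), Mup20 (2.53, 0.30 and -1.58), Mup19 and Mup21, which are near-identical copies, so their probes do not count as separate genes. Trf, transferrin, which other cells also make, was even at 6.29, 6.32 and 6.29. List signals are those of the brightest or only detected probe of each gene. Mouse 1 was at least 1 above both others for 3.11% of the brightest of several probes and 5.95% of single probes. The share was 17.8% for the dimmest probes, which the list does not use where a gene has several. The part of that pattern in the liver list was not tested. Mouse 2 also lay above mouse 3 in Alb, Mup3, Ttr and Ahsg.

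**Figure D5:**
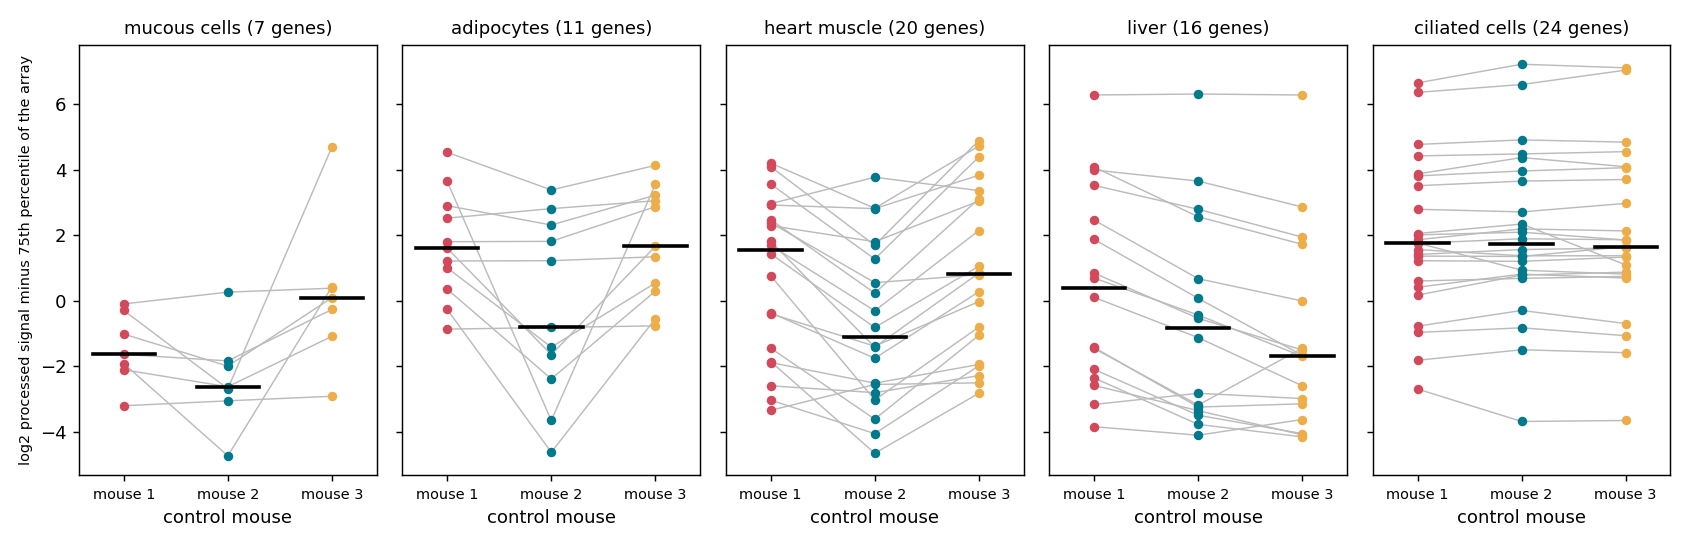
Log2 signal relative to the 75th percentile of the array (vertical axis) in each control mouse for the detected genes of 5 lists; grey lines join the same gene and black bars are list medians. Mouse 3 is high for mucous cell genes, mouse 2 is low for adipocyte and heart muscle genes, mouse 1 is high for liver genes, and ciliated cell medians stay between 1.64 and 1.77.

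Lists for other tissues checked what else the dissected samples held. Erythroid genes were led by the globins (median percentile 93.1, 13 of 13 detected). Skeletal muscle (24.7, 9 of 12 detected), kidney (24.4, 9 of 10), brain (30.1, 7 of 10), cartilage (29.0, 6 of 10), thymus (32.0, 6 of 10) and oesophagus (32.7, 7 of 10) lay low. Defining genes that were not detected on all arrays included Myh4 of fast muscle, Rag1, Rag2 and Foxn1 of thymus, Acan of cartilage, Umod of kidney and Slc17a7 of brain. A gene below the detection call is not shown to be absent.

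Genes that differed between control mice differed within the other diets to unequal extents. Of the 3833 genes with a range of at least 1 in controls, 56.1% had such a range among the 3 mice at 20 ppm, 37.2% at 500 ppm, 30.1% at 2500 ppm and 24.6% at 5000 ppm. Over all 32975 genes these shares were 13.9%, 27.1%, 20.1% and 7.3%. Genes above both others in mouse 1 had a range of at least 1 at 20 ppm in 84.8%, and in 34.5%, 19% and 30.3% at the higher doses. Genes below both others in mouse 2 had one in 67.6%, 64.9%, 73.9% and 78.4%, so that set was wide in every diet. Genes below both in mouse 3 were wide in every diet too, at 67.8%, 72.9%, 61% and 53.4%. Those above both in mouse 3 had 41.2%, 53.6%, 64.9% and 53.6%. Shares were 52%, 30.6%, 45.9% and 17.3% for genes below in mouse 1. They were 37.4%, 56.8%, 43.9% and 28.4% for genes above in mouse 2. The control arrays, the 20 ppm arrays and 2 of the 500 ppm arrays lay on 1 slide, and the other arrays on another. At 500 ppm the array on the other slide had 87.04% of probes well above background, against at most 77.68% on the rest. Slide and mouse thus cannot be told apart in the spread at 500 ppm. At 2500 ppm 1 array had a median variation between replicate spots of 15.33%, against at most 6.701%. At 20 ppm 1 array had 81.45% of probes well above background, against 70.75% and 71.5% on the others. Control mouse 1 had 80.87%, against 76.02% and 77.59% on the other control arrays. The part of these arrays in the shares was not tested.

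Single genes followed either course. Cfd had ranges of 4.30, 7.96, 8.81 and 7.46 at 20, 500, 2500 and 5000 ppm. Scgb3a1 had 4.84, 5.74, 8.62 and 6.50, Bpifb1 5.16, 3.83, 8.99 and 7.02, and Muc5b 4.46, 3.97, 6.16 and 5.72. These genes differed widely among mice of every diet, each by at least as much as 3.83 (log2). Itln1 had 0.79 and 0.92 at the lower doses and 4.19 and 6.89 at the higher, and Gdpd3 had 0.10, 0.57, 1.17 and 5.99. Lyz2 had 1.93 at 20 ppm and 0.39, 0.38 and 0.29 at the others, and H4c4 had 4.06, 0.06, 0.25 and 1.01. Sftpc and Scgb1a1 stayed within 0.45 and 0.66 in every diet.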

How the data were processed

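Lung RNA of 15 mice was measured on 1-colour Agilent arrays, and the 3 control arrays are described here. Per the labels' protocols, each sample's label was Cy3 and its input 100 ng of RNA. The scanner files, made by Feature Extraction 10.7.3.1 per the file headers, hold background-subtracted processed signals as intensity on a linear scale, with mm9 as the probes' build. The table the authors deposited holds log2 values. On the control arrays it correlated at 1.000 with log2 processed signal and differed by a constant (8.87, 8.54 and 8.64). Its column medians were -2.76, -2.84 and -2.91, and the origin of its centring is not given in the sources used here.

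Control and outlier spots were left out, replicate spots averaged, and log2 signals set to 0 at each array's 75th percentile (Python 3.11.15, pandas 2.3.3, numpy 2.4.6). A probe was detected when at least 50% of its spots were well above background on all 3 arrays. Probes were named through RefSeq accessions in a table of GRCm38.p6, which was used for names and promoter sequences. Of the 56605 probes, 34675 matched a symbol and 21930 did not. Each named gene was taken by its detected probe with the highest mean.

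The 60 lists (1030 of 1152 distinct members detected) and the genes named were chosen with earlier results of these data known. The rule names the 30 highest genes, the 3 highest members of a list (6 for lung cell types and enzyme families), its undetected members and its 2 widest ranges, the 12 widest ranges of all named genes, the 8 genes furthest apart per mouse and direction, and 13 genes in every case: Sftpc, Scgb1a1, Cyp2f2, Cyp2b10, Ager, Foxj1, Pecam1, Chil3, Lyz1, Lyz2, Xist, Actb and Gapdh. Sftpb, Muc5ac, Krt5, Krt14, Chga, C1qc, Napsa, S100a8, H2-Ab1, H2-Aa, Cd74, Dcn, Abca3, Trf, Ttr, Ahsg, Mup1, Gja5, Myl2, Fabp4, Lep and further members of the mucous, heart muscle, adipocyte and liver lists were named after their values were seen. The differences between mice have no test, since each mouse is 1 array. The labels call the 3 arrays biological replicates. The number of arrays limits the precision. The alternatives were other scales, normexp background correction in limma 3.58.1 (R 4.3.3), the deposited values, other detection filters, probe rules and thresholds, and each mouse left out. Normexp used the median spot signals in place of the planned mean signals, which are not used here.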

Additional observations from a re-analysis of the deposited data

How the results depend on the processing

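The 3833 genes with a range of at least 1 became 1822 with normexp correction, 6033 with detection on at least 1 array, 8942 with no filter, 5840 with every probe by itself, 12448 at 1.5-fold and 872 at 4-fold. Leaving out 1 mouse gave between 700 (without mouse 1) and 2853 genes, a lowest r between 0.976 and 0.991 (0.991 without mouse 1), and 18839 to 19212 detected genes. With the mean of a gene's probes, 16 of the 30 highest genes stayed among the 30. Normexp gave 3 members of the mucous list with mouse 3 apart and 5 of the liver list with mouse 1 apart, and no filter gave 8 of the mucous list. At 4-fold the heart muscle, mucous and liver lists had 6, 2 and 0. The genes above and below both others were, for mouse 1, 918 and 128 with normexp, 2481 and 2407 at 1.5-fold and 454 and 37 at 4-fold. For mouse 2 they were 58 and 48, 934 and 406, and 10 and 29. For mouse 3 they were 35 and 40, 542 and 602, and 9 and 10. With every probe by itself mouse 1 was above in 2875. Those below in mouse 1 were 519 with the array median as the scale, 476 with detection on at least 1 array and 766 with no filter. With detection on at least 1 array, mouse 2 had 294 above and 337 below, and mouse 3 had 198 and 483. With no filter these were 700 and 484, and 362 and 869. The cause was not tested where the alternative does not itself change the genes or the threshold. The array median as the scale moved all signals by 2.75, 2.84 and 2.90 in mouse 1, 2 and 3. Of 204 percentile ranks of 17 genes over 12 alternatives, 40 moved by more than 1 SD of the mice. Mouse 3 stayed highest in 7 of 7 mucous genes, mouse 2 lowest in 18 of 20 heart muscle genes and mouse 1 lowest in 16 of 18 type 1 genes under the array median, quantile and normexp settings. Alveolar macrophage genes had mouse 3 highest in 19 of 23 after quantile normalization, against 21. No paired analysis was possible because a single group was described. All control arrays shared a slide, so slide could not be examined among them, and low signals near the detection call limit what a dim probe shows.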

Other observations

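A minority of the genes that respond to handling and time of day varied between the control mice. Of 18 circadian genes, 4 had a range of at least 1, as did 4 of 16 glucocorticoid response genes. The share of all genes was 11.6%. Per1, a clock gene that glucocorticoids also induce and that is on both lists, had 1.56, 3.60 and 2.46 in mouse 1, 2 and 3. Tsc22d3, a glucocorticoid-induced leucine zipper gene, had 4.19, 5.16 and 4.46, a range of 0.97. Ranges were smaller for the clock genes Dbp (0.30) and Per2 (0.57) and the glucocorticoid response genes Sgk1 (0.58) and Fkbp5 (0.44). The part of handling or time of day was not tested. In the list of 16 glucocorticoid response genes mouse 1 was the lowest for 14, against 60.6% of all genes. Mouse 2 was the highest for 9, against 42.1% of all genes. The list had a median percentile of 91. In the top class by signal, as used for the type 1 list, mouse 1 was the lowest for 84.1%. Mouse 2 was the highest for 53.5% of that class. The counts of the list lay near these shares. After quantile normalization mouse 1 was the lowest for 9 of the 16. Among immediate early genes the reverse held for Fos (3.27, 1.12 and 1.34), Egr1 (0.98, -0.95 and -0.39) and Atf3 (-0.44, -1.99 and -2.37), all highest in mouse 1, while Jun was even (5.40, 5.74 and 5.72). Of 27 immediate early genes, mouse 1 was at least 1 above both others in 5, against 4.55% of all genes. These signals, too, are of the brightest or only detected probe of each gene. For the brightest of several probes the share with mouse 1 above was 3.11%, and for single probes 5.95%. It was 17.8% for the dimmest probes of genes with several. The part of that pattern in the immediate early genes was not tested.

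Proliferation genes had a median percentile of 56.8, with Pcna, the sliding clamp of replication, at 3.35, 3.62 and 3.46. Mouse 2 was the highest for 22 of 28, as it was for 22 of 30 oxidative phosphorylation and 68 of 79 ribosomal protein genes and for 42.1% of all genes. Of 27 interferon genes, 1 (3.7%) had a range of at least 1, against 11.6% of all genes. It was the GTPase gene Igtp (3.11, 4.02 and 2.77), and Isg15 had 3.68, 3.99 and 3.55. Among cholesterol synthesis genes, mouse 3 was the highest for 16 of 22, against 36.2% of all genes, with Hmgcs1 at 3.41, 3.44 and 3.83.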
